A study of Mus musculus with 12 samples.

Results

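Livers that lacked Atf4 were compared with wild-type livers in the absence of an ER stressor. The knockout group, LsATF4-KO with 0.3% DMSO, and the wild-type group with 0.3% DMSO held 3 libraries each, from livers of C57BL/6 mice taken 6 h after an intraperitoneal injection of this solvent. The members are all named loci with at least 1 FPKM (fragments mapped to a locus, scaled for transcript length and library size) in either group: 11222 of 23951 named loci and of 27109 loci in all. Of these, 10770 reached 1 FPKM in both groups, 151 in wild type alone and 301 in the knockout alone. C330021F23Rik, at 1.00 FPKM in the knockout, lay just inside this limit, and Sdsl, at 0.999 FPKM in the knockout, just outside. The other 2 groups of the study, wild type and knockout 6 h after 1 mg/kg tunicamycin, are used only for a second comparison of the genotypes, which shares no library with the first. The promoter that drove the deletion, the exons removed, the sex and age of the mice and whether each library came from a different animal are not stated in the labels. If libraries of a group came from 1 animal, the p-values measure only technical spread.

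ATF4 is a basic leucine zipper transcription factor. Kinases that phosphorylate the initiation factor eIF2, among them PERK in the ER membrane and GCN2 during amino acid shortage, lower general translation and raise translation of the Atf4 mRNA. ATF4 then acts with partners of the C/EBP family at composite elements in genes of amino acid transport and synthesis, tRNA charging and redox defence, and it induces CHOP (Ddit3), Atf3 and Trib3. The study's design asks what its loss does both without stress and under it.

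The authors' deposited table gives 1 FPKM per locus and group, pooled over its 3 libraries, and the authors' own Cuffdiff test. All FPKM below are those group values, and every log2 ratio is knockout over wild type, computed from them. "Higher", "lower", "rose" and "fell" of a locus mean a deposited q under 0.05. A standard error (SE) beside a log2 ratio was taken from the deposited test statistic after rescaling it to match the deposited p-values. Each printed SE is therefore smaller than the deposited statistic alone gives, and the scale is stated with the processing below. Sequencing depth is unknown, and the table allows no SD, no range over libraries and no fit without a library. All knockout DMSO libraries ran on lane 5 and all wild-type DMSO libraries on lane 4, so these factors cannot be told apart: the lane and the genotype change together. In bulk tissue, fewer cells of a type and less RNA per cell cannot be told apart either.

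The table holds the targeted gene, Atf4, in 1 locus together with Cacna1i, which encodes a calcium channel (mm9, chromosome 15, 80085614 to 80228829). Wild type had 46.9 FPKM at this merged locus and the knockout 22.8, a log2 ratio of -1.04 that was not called (p 0.108, q 0.270 in the authors' deposited table). Rps19bp1, listed at the same interval, went from 12.98 to 1.91 FPKM without a call (q 0.217 in the authors' deposited table). A separate entry of Cacna1i there had 3.09 FPKM in wild type, against 6.86 in the knockout, also without a call. With tunicamycin the merged locus of Atf4 was called lower, with 356 FPKM in wild type, against 114 in the knockout (log2 -1.64, q 0.000396 in the authors' deposited table). Reads of several genes are mixed in this interval, so the share of Atf4 deleted cannot be read from it. Among 170 tested members within 5 Mb of it, 2 were higher (Pnpla3 and Fbln1) and 2 lower (Apol9b and 9030619P08Rik).

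Of 11201 tested members, 182 were higher in the knockout (1.62%) and 192 lower (1.71%). Without adjustment 860 members had p under 0.05. The deposited q-values adjust over all 6 comparisons of the table together. With q computed in this comparison alone, 46 members stayed higher (0.411%) and 48 lower (0.429%), so most calls depend on that wider adjustment. At least 2-fold changes were 41 rises and 40 falls. The median log2 ratio over tested members was -0.08. Rises and falls sat at different abundance. Of members between 1 and 2 FPKM in the higher group, 2.45% rose and 0.490% fell, and of those at 100 FPKM or more, 0.735% rose and 5.51% fell. The median log2 ratio went from 0.14 in the first of these bins to -0.25 in the last. With tunicamycin it went from 0.05 to -0.11 over the same bins. Whether this slope has a part in the gene groups below was not tested. Of the calls, 152 rises and 182 falls had at least 1 FPKM in both groups.

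**Figure D1:**
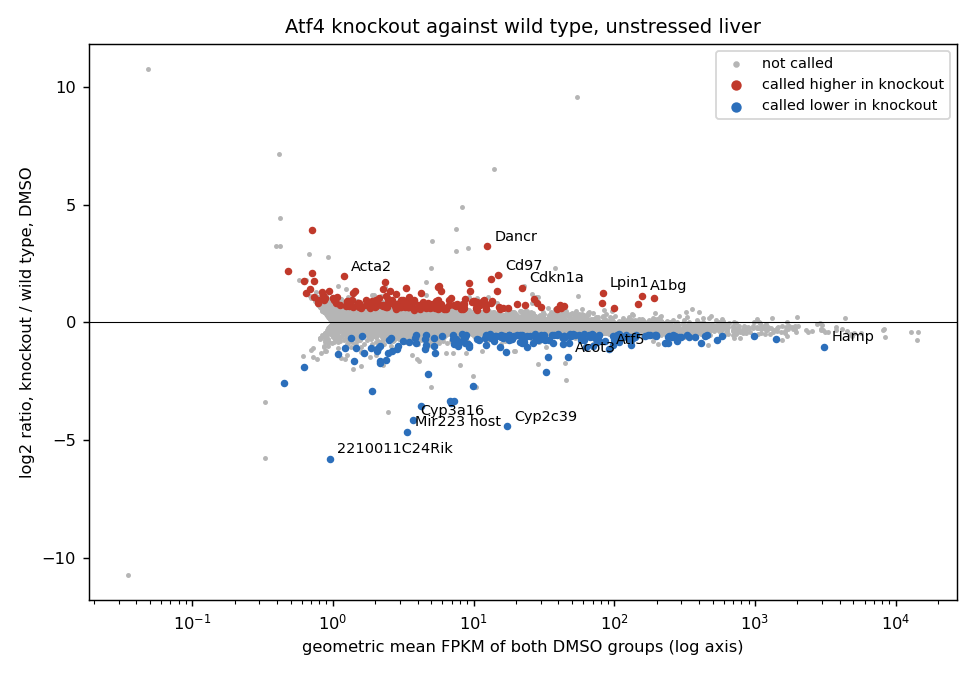
Log2 ratio of knockout over wild type with DMSO (vertical axis) against the geometric mean FPKM of both groups (horizontal, log axis) for members above 0 in both. Red points are the members called higher and blue those called lower, grey the rest; blue points gather at the right, where 5.51% of loci at 100 FPKM or more fell, and red points at the left.

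Genes under the control of the tumour suppressor p53 were higher in the knockout. Of 27 tested p53 targets, 13 rose and none fell, beside 1.62% and 1.71% of all tested members, with a median log2 ratio of 0.52 beside -0.08. This list was written with earlier results of these data known, so its direction is not independent evidence. Cdkn1a, which encodes the cell-cycle inhibitor p21 (mm9, chromosome 17, 29227931 to 29237667), had 13.3 FPKM in wild type, against 36.9 in the knockout (log2 1.47, SE 0.25). Psrc1, a spindle-associated protein, rose from 1.29 to 4.30 FPKM (1.74, SE 0.41). Both were also higher in the knockout with tunicamycin.

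Further p53 targets in which the knockout lay above wild type serve cell death and growth arrest. The death receptor gene Tnfrsf10b went from 0.906 to 2.31 FPKM (log2 1.35, SE 0.35) and Zmat3, an RNA-binding protein, from 3.67 to 9.24 (1.33, SE 0.23). Phlda3, a repressor of AKT signalling, went from 9.21 to 23.0 (1.32, SE 0.27). The feedback ubiquitin ligase Mdm2 (0.59), the pore-forming Bax (0.63), Ccng1 (0.57), Aen (0.89), Plk2 (0.91), Ddit4l (0.92), Eda2r (0.92) and Gtse1 (0.86) rose as well. Not every target moved: the BH3-only gene Bbc3 had 5.12 and 3.90 FPKM, Fas 16.9 and 15.4, and Sesn1 8.72 and 6.88, none of them called. With q in this comparison alone, 5 of the 13 rises were kept.

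The p53 list had the same direction in the tunicamycin libraries. These all ran on lane 4, and the part of the lane in the DMSO ratios was not tested. The list was written with earlier results known, so this direction is not independent evidence either. There 13 of the p53 targets were higher in the knockout and none lower, with a median log2 ratio of 0.41, beside 2.26% of members higher and 2.35% lower. Phlda3 had 0.736 FPKM in wild type, against 12.5 in the knockout, and Bax 20.1 and 41.5. For Phlda3 the knockout effect was larger with tunicamycin, by 2.76 on the log2 scale (z test on both deposited statistics, Benjamini-Hochberg adjusted p 1.18e-06), and Eda2r differed the same way. No other target of the list was called by this test, which called 125 of 11108 members (1.13%). The count rests on rescaling the deposited statistic to match the deposited p-values: without it 13 members were called, and neither p53 target.

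Genes of the vessel lining were higher in the knockout with DMSO. Of 22 tested endothelial markers, 11 rose and none fell (median log2 ratio 0.75), and of 16 markers of liver sinusoidal endothelium, the fenestrated lining of the liver's capillaries, 8 rose and none fell (median 0.68). The summed FPKM of the sinusoidal list was 201 in wild type and 302 in the knockout, and no marker of either list was at 0. Stab1, a scavenger receptor (mm9, chromosome 14, 31948039 to 31981827), had 6.16 and 12.3 FPKM (log2 1.00, SE 0.20). The VEGF receptor genes Kdr (8.57 and 16.5 FPKM; 0.95, SE 0.20) and Flt1 (1.43 and 2.72; 0.93, SE 0.25) rose alike. Gpr182, an atypical chemokine receptor, rose from 8.45 to 15.8 FPKM, the endocytic Ehd3 from 21.3 to 37.5 and the mannose receptor gene Mrc1 from 9.45 to 15.9. Of the markers that rose, all but Dnase1l3 and Ehd3 stayed under 20 FPKM, where 1.68% to 2.49% of members rose.

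Other endothelial markers had small ratios. Cldn5, a tight junction protein, had 5.96 FPKM in wild type, against 5.51 in the knockout, Egfl7 20.5 and 24.3, and Clec4g 45.3 and 60.2, none of them called. Wnt2, a ligand that sinusoidal cells give to hepatocytes, had 1.9995 and 2.66 FPKM and was not called. Bmp2, the ligand by which these cells raise hepcidin, rose from 5.22 to 8.67 FPKM. With q in this comparison alone, 3 rises of the endothelial list and 4 of the sinusoidal list were kept. A further 16 loci with roles in endothelium, picked out after their values were seen, rose by 0.60 to 0.97 on the log2 scale. They include the adhesion receptor gene Gpr116, the clotting factor gene F8 and the water channel gene Aqp1 (34.5 to 55.3 FPKM).

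With tunicamycin the endothelial genes did not have this direction. The median log2 ratio was -0.19 for endothelium and -0.42 for the sinusoidal list. Of the first, 2 loci rose and none fell, and of the second, 3 fell and none rose. Kdr had 11.4 FPKM in wild type, against 9.04 in the knockout, and Stab1 9.38 and 7.39. The knockout with DMSO was thus the highest of the 4 groups for both genes. That group alone ran on lane 5, and the part of the lane in this pattern was not tested. The effects differed between treatments at 8 of 16 sinusoidal loci and 5 of 22 endothelial loci by the z test, and at none of either list (0 and 0) without rescaling the statistic. Examples with rescaling are Stab1 (difference 1.34, z test adjusted p 0.000574) and Dnase1l3 (1.42, adjusted p 9.28e-05). Dnase1l3 and Lyve1 were called in opposite directions in both comparisons.

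Matrix genes were higher too, beside 1.62% of all tested members that rose and 1.71% that fell (median -0.08). Of 29 tested loci of the extracellular matrix and its enzymes, 9 rose and none fell, with a median of 0.50. They were the basement membrane genes Col4a1 (5.92 to 9.56 FPKM), Col4a2 (4.01 to 7.67), Lama4, Lamb2 and Hspg2 (2.70 to 5.29), the microfibril collagens Col6a1, Col6a2 and Col6a3, and Ltbp4, which holds latent TGF-beta (7.74 to 14.1). Abundant matrix genes such as Fn1, at 549 and 615 FPKM, and Col18a1, at 186 and 189, were not called. With q in this comparison alone 3 of the 9 were kept.

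Of 21 markers of stellate cells and fibroblasts, the perivascular cells that store vitamin A and lay down collagen, 5 rose and none fell. The median of this list was 0.24. Over all tested members 1.62% rose and 1.71% fell, with a median of -0.08. Acta2, the smooth-muscle actin of activated stellate and vascular muscle cells (mm9, chromosome 19, 34314826 to 34329863), had 0.601 FPKM in wild type, against 2.35 in the knockout (log2 1.97, SE 0.38). It had 1.64 and 1.53 with tunicamycin, so that wild type with DMSO was the lowest of the 4 groups. Myl9, a myosin light chain, went from 1.61 to 4.03 FPKM, Col1a1 from 3.56 to 6.24, Col1a2 from 5.03 to 7.56 and Reln from 6.90 to 10.6. The defining markers Lrat (6.58 and 6.89 FPKM), Dcn (111 and 110) and Pdgfrb (2.30 and 2.58) were not called.

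Markers of most other cell types gave few calls, beside 1.62% of all tested members that rose and 1.71% that fell. Of 19 loci of Kupffer cells and macrophages only the haemoglobin scavenger receptor gene Cd163 rose, from 4.80 to 9.80 FPKM, while Clec4f (54.0 and 62.3) and Vsig4 (24.6 and 29.6) were not called. The list's summed FPKM was 524 and 547. Of 4 tested loci of T and NK cells, 1 of B cells, 9 of cholangiocytes, 6 of erythroid cells, 3 of mesothelium and 1 of skeletal muscle none was called, and of exocrine pancreas none was a member. The summed FPKM of the erythroid list still differed between groups: with DMSO it was 80.3 in wild type, against 233 in the knockout, and with tunicamycin 112, against 40.8. This is the order that the summed endothelial lists had, with the knockout highest under DMSO and lower than wild type under tunicamycin. The sum follows Hbb-b1, a beta-globin gene, which went from 1.45 to 135 FPKM with DMSO without a call, and had 59.3 and 0.286 with tunicamycin. A merged beta-globin locus at the same interval, Hbb-b1,Hbb-bh1,Hbb-bs,Hbb-bt, is not in the sum and did not have that order: 398 and 382 FPKM with DMSO, 272 and 421 with tunicamycin. Globin copies are near-identical, so how reads were split between these 2 entries is uncertain. Of 2 entries for the locus of Hba-a1 and Hba-a2, the alpha-globins, that in the list had 32.8 and 55.5 FPKM with DMSO, 27.6 and 16.7 with tunicamycin, and neither difference was called. The other had 13.4 and 39.3 FPKM with DMSO, 13.8 and 8.36 with tunicamycin. Alas2, the erythroid enzyme of haem synthesis, had 14.6 and 14.2 FPKM with DMSO. The part of blood cells in the endothelial values was not tested. Among 3 neutrophil loci Lcn2 rose, a gene that hepatocytes also express. The hepatocyte products, from apolipoproteins to fibrinogen, had no call among 14 tested loci. All 14 had a log2 ratio below 0 (median -0.35, beside -0.25 for all members at 100 FPKM or more), and the list's summed FPKM was 59738 in wild type and 46864 in the knockout; Alb is listed at 0 in both groups.

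**Figure D2:**
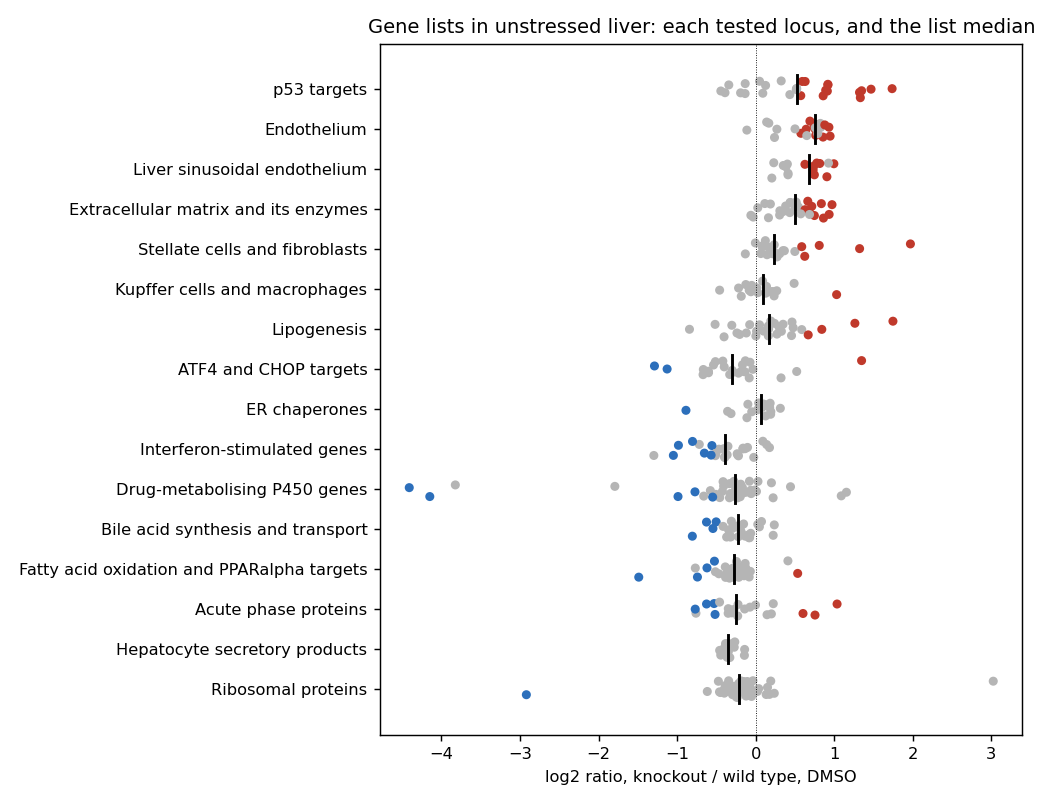
Log2 ratio of knockout over wild type with DMSO for each tested member of 16 gene lists, 1 point per locus, with the list median as a black bar; vertical scatter within a list has no meaning. Red points were called higher, blue ones lower, and grey ones were not called. Among called points, the p53, endothelial and matrix lists hold only red, with list medians of 0.50 to 0.75. The interferon list holds only blue among its called points.

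Genes that interferons induce were lower in the knockout. Of 27 tested loci 6 fell and none rose, with a median log2 ratio of -0.39, and 3 of the 6 were kept with q in this comparison alone. Of all tested members 1.71% fell and 1.62% rose, with a median of -0.08. The share that fell was 1.05% at 5 to 20 FPKM (median -0.08), 3.03% at 20 to 100 (-0.17) and 5.51% at 100 or more (-0.25). Ifit1, which binds viral RNA (mm9, chromosome 19, 34715379 to 34724499), had 10.8 FPKM in wild type, against 5.48 in the knockout (log2 -0.98, SE 0.22). The loci of the immunity GTPases Ifi47 (22.2 to 10.7 FPKM, merged with Olfr56), Igtp (102 to 58.5, merged with Irgm2) and Irgm1 (53.1 to 35.8) fell too. So did the locus of Ifit3 with I830012O16Rik (15.2 to 9.68) and Usp18, an inhibitor of the interferon receptor (15.5 to 10.54). The transcription factor gene Irf7 (28.8 and 24.5 FPKM) and the effector Mx1 (1.01 and 0.898) were not called.

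Loci outside that list, chosen after their values were seen, had the same direction: 9 further interferon-responsive loci fell, by 0.53 to 1.63 on the log2 scale. Tgtp2, another immunity GTPase, fell from 3.79 to 1.23 FPKM, the nucleic acid sensor Zbp1 from 13.01 to 6.64 and AW112010 from 182 to 93.2. The chemokine genes Cxcl9 (11.8 to 6.44 FPKM) and Ccl9 (35.9 to 19.6) were the 2 of 17 chemokine and NF-kB loci that fell, and none rose. No MHC locus was called among 13. With tunicamycin the interferon list had a median of -0.12 and 1 fall. Igtp then had 15.1 FPKM in wild type, against 13.4 in the knockout, both below the DMSO groups. The z test called no locus of the interferon list, with (0) or without rescaling (0).

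The interferon-stimulated response element, bound by the ISGF3 complex and by IRF factors, was searched as GAAA, any 2 bases and GAAA on both strands, from 250 bases before to 50 after each gene start in the RefSeq promoter table. It stood in 3.45% of all 32544 promoters and in 3.78% of the 8340 members with a promoter entry. Of 142 loci that fell and had an entry, 14 (9.86%) held it, and of 124 that rose, 3 (2.42%). In the interferon list 12 of 21 promoters held it, 4 of the 5 that fell among them. A match is a description of these letters, not of binding. Shown are the 250 bases before the start (GRCm38.p6, 5′ to 3′ on the gene's strand) of genes that fell, with each match in capitals. A match on the other strand reads TTTC, any 2 bases and TTTC.
Ifit1 (chr19:34640639-34640888, + strand): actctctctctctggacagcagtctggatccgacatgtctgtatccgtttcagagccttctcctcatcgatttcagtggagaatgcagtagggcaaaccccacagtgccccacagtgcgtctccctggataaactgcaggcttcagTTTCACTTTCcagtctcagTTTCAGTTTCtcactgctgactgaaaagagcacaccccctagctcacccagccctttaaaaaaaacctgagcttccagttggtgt
Ifit3 (chr19:34583279-34583528, + strand): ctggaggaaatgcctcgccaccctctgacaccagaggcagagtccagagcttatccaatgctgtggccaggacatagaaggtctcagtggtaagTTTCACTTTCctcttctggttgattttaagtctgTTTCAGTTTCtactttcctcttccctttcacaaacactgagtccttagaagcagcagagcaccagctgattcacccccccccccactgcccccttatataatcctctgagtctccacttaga
Irgm1 (chr11:48871421-48871670, - strand): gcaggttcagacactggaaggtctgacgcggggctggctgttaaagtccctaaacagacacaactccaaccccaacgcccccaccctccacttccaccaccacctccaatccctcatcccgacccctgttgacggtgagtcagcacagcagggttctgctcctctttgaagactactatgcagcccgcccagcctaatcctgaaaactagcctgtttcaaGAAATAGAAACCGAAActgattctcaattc
Igtp (chr11:58199306-58199555, + strand): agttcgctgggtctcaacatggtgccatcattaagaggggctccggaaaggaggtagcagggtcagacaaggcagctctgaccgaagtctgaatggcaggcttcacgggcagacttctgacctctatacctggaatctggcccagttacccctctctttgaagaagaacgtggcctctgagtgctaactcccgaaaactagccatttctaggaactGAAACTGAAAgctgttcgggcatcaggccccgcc
Ifit1 and Ifit3 each hold 2 separate matches, starting 104 and 85 bases before the start in Ifit1 and 156 and 122 in Ifit3. In Irgm1 2 matches overlap, 30 and 24 bases before the start, and Igtp has 1 at 34 bases.

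Known targets of ATF4 and of CHOP gave few calls without stress. Of 24 tested loci of this list 2 fell and 1 rose, with a median log2 ratio of -0.30, and 21 of the 24 ratios were below 0. Of all 11201 tested members 1.71% fell and 1.62% rose, the median was -0.08 and 6977 ratios were below 0. Atf5, a leucine zipper factor of the same family (mm9, chromosome 7, 52067626 to 52104449), fell from 135 to 61.8 FPKM (log2 -1.13, SE 0.26). Atf3 fell from 2.58 to 1.06 FPKM (-1.29, SE 0.37), and the locus that rose was the death receptor gene Tnfrsf10b, which p53 also controls. Ddit3 had 15.2 and 10.03 FPKM, Trib3 6.03 and 3.97, Chac1 1.96 and 1.38, and the amino acid transporter gene Slc7a5 1.68 and 1.499, none of them called.

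With tunicamycin 12 loci of the list fell and 1 rose, and the median was -0.56. Of all tested members 2.35% were lower and 2.26% higher in that comparison. The effects of both treatments differed by the z test at 2 of the 24: Slc6a9, a glycine transporter gene (1.41, adjusted p 0.000270), and Chac1 (1.59, adjusted p 0.0346), both with the larger fall under tunicamycin and neither called without rescaling. Of 20 cytosolic tRNA synthetase loci none was called with DMSO (median -0.08), and 6 fell with tunicamycin. Extl1, a glycosyltransferase gene outside the list, fell from 1.09 to 0.186 FPKM with DMSO and from 11.003 to 1.997 with tunicamycin.

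The C/EBP-ATF composite element was searched as TGATGNAA on both strands in the same windows. It stood in 3.91% of all promoters, in 2.72% of members with an entry, in 5 of 142 loci that fell (3.52%) and in 1 of 124 that rose (0.806%). In the ATF4 and CHOP list 6 of 20 promoters held it, and of both falling loci of that list Atf3 did. Its 250 bases before the start are shown with the match, 110 bases before the start and on the other strand, in capitals.
Atf3 (chr1:191183334-191183583, - strand, GRCm38.p6): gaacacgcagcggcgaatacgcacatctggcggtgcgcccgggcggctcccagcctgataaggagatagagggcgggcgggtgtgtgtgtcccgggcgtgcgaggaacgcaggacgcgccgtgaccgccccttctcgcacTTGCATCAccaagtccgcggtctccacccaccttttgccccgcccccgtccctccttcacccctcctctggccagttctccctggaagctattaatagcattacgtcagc
The windows of Atf5 do not hold these letters.

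The folding machinery of the ER gave a single call. Of 18 ER chaperone loci only Dnajb9, a cochaperone of BiP that restrains IRE1, was called: it fell from 49.9 to 27.0 FPKM (log2 -0.89, SE 0.19). Hspa5, the gene of BiP, had 409 and 329 FPKM, Hsp90b1 398 and 452 and Calr 440 and 498, none of them called. None of 14 loci of ER stress sensors and their factors and none of 18 loci of ER-associated degradation was called, and all 14 sensor ratios were below 0 (median -0.23), as were 6977 of all 11201 tested members. In the cytosol the constitutive chaperone Hspa8 fell from 143 to 81.1 FPKM and the small heat shock gene Hspb1 from 12.5 to 6.66, 2 of 13 loci. No NRF2 or redox locus was called among 21, and none of 9 metallothionein and zinc transporter loci.

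**Figure D3:**
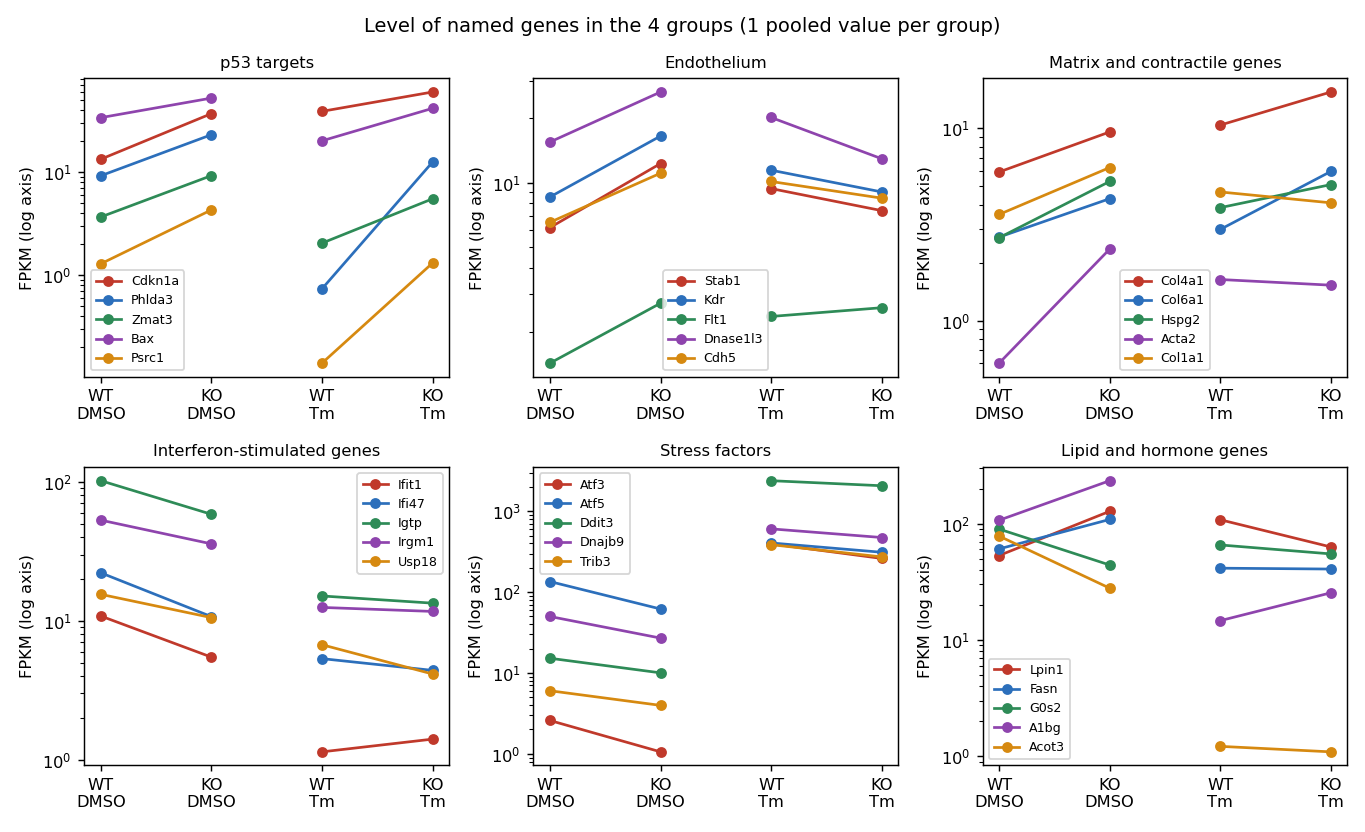
FPKM (log axis) of named genes in the 4 groups, with 1 pooled value per group and a line joining wild type (WT) and knockout (KO) within a treatment (Tm, tunicamycin). The p53 targets rise from WT to KO in both treatments, the endothelial genes with DMSO only except Flt1 (2.36 and 2.59 with tunicamycin), and the stress factors lie far higher with tunicamycin than with DMSO in both genotypes.

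Of the 12 largest falls at 5 FPKM or more, 4 were at microRNA-bearing loci. Poly(A) libraries read the primary or host transcript, not the mature microRNA, so the values below say nothing about mature levels. Of 32 tested loci with a microRNA name, 2 rose and 4 fell, beside 1.62% and 1.71% of all tested members. The locus of F630028O10Rik with Mir223, a microRNA of myeloid cells (mm9, chromosome X, 93435265 to 93438981), had 16.99 FPKM in wild type, against 0.675 in the knockout (log2 -4.65, SE 0.57). It had 12.4 and 0.457 with tunicamycin, and both knockout groups lay below both wild-type groups. None of the 19 tested Kupffer and macrophage loci fell, and none of the 3 neutrophil loci tested, out of 15 in that list. The part of myeloid cells in the Mir223 values was not tested.

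A group of other microRNA loci was called lower with DMSO and not with tunicamycin. Mir365-2 went from 14.3 to 1.23 FPKM, and had 0.952 and 0.868 with tunicamycin. The cluster of let-7a-1, let-7d and let-7f-1 went from 22.7 to 2.13, against 17.3 and 16.1. The Mir17hg locus, host of the miR-17 to miR-92 cluster, went from 21.7 to 2.16, against 3.66 and 4.11. The z test called the difference between treatments at each of them, for let-7 with an adjusted p of 1.01e-14; without rescaling only let-7 of these was called. In the let-7 cluster the knockout with DMSO was thus the one low group, and in Mir365-2 and Mir17hg the wild type with DMSO was the one high group.

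Mir34a, a microRNA gene that p53 induces, rose from 1.84 to 4.29 FPKM (log2 1.22, SE 0.36) and had 0.632 and 4.33 with tunicamycin. The imprinted noncoding locus of Meg3 with Mir770 and Mir1906-1 rose from 5.79 to 9.76 FPKM and had 2.71 and 22.4 with tunicamycin. In both, the knockout was above wild type in each treatment. The mature sequences from RefSeq (GRCm38.p6) are printed 5′ to 3′ with the seed, bases 2 to 8, in capitals, to show shared seeds.
miR-223-3p: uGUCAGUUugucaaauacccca
miR-365-3p: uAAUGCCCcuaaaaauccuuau
let-7a-5p: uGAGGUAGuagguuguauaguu
let-7d-5p: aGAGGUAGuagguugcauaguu
let-7f-5p: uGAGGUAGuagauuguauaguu
miR-18a-5p: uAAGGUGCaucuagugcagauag
miR-20a-5p: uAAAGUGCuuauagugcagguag
miR-19a-3p: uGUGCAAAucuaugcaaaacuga
miR-19b-3p: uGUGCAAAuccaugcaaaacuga
miR-34a-5p: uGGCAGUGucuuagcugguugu
The 3 let-7 members share the seed GAGGUAG, and miR-19a and miR-19b share GUGCAAA. Each shared seed belongs to members of a single locus, and the other printed seeds each occur once here. Of 13 microRNA names at these loci, 12 matched an entry.

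Of 43 tested loci of drug-metabolising P450 enzymes 5 fell and none rose, with a median log2 ratio of -0.26. Beside them stand 1.71% of all tested members that fell and, of members at 100 FPKM or more, 5.51% that fell with a median of -0.25. Cyp2c39 (mm9, chromosome 19, 39585312 to 39643019) fell from 79.7 to 3.75 FPKM (-4.41, SE 0.32) and Cyp3a16 (chromosome 5, 146197178 to 146230592) from 15.6 to 0.880 (-4.15, SE 0.35). Cyp2c37 fell from 361 to 212 FPKM, Cyp2c38 from 99.9 to 50.4 and Cyp3a13 from 126 to 86.5. These families hold near-identical copies, and reads shared between copies could have been split differently in the 2 groups, so single members are uncertain. Cyp3a16 was also lower in the knockout with tunicamycin, and Cyp2c39 was not (2.29 and 2.02 FPKM).

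Of 34 phase II loci 4 fell and 1 rose, with a median log2 ratio of -0.27. The sulfotransferases Sult1d1 (170 to 104 FPKM) and Sult2a2 (135 to 69.7) and the glycosyltransferases Ugt3a1 and Ugt3a2 were the falls, and the acetyltransferase gene Nat8 the rise (1.37 to 3.72). Beside the phase II falls stand 1.71% of all tested members that fell, and 5.51% at 100 FPKM or more (median -0.25). None of the phase II calls was kept with q in this comparison alone. Cyp26a1, which degrades retinoic acid, fell from 34.3 to 16.5 FPKM with DMSO and from 9.52 to 3.49 with tunicamycin.

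The bile acid genes gave 4 falls and no rise among 28 loci, with a median of -0.23. Of all members at 20 to 100 FPKM, 3.03% fell (median -0.17), and at 100 FPKM or more 5.51% (median -0.25). Cyp39a1, a 24-hydroxycholesterol hydroxylase, went from 29.5 to 16.9 FPKM (log2 -0.81, SE 0.21), Baat, the conjugating enzyme, from 160 to 104, the sterol hydroxylase Cyp8b1 from 60.2 to 42.5 and the FGF coreceptor Klb from 14.8 to 10.2. Cyp7a1, the rate-limiting enzyme, had 105 and 90.6 FPKM without a call. With tunicamycin 11 loci of this list fell and 1 rose. Of 30 loci of cholesterol synthesis and uptake only Mylip, which degrades the LDL receptor, was called, a rise from 4.56 to 7.07 FPKM.

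Lipid genes went both ways. Of 29 lipogenic loci 4 rose and none fell: the phosphatidate phosphatase Lpin1 (53.2 to 128 FPKM; log2 1.26, SE 0.23), fatty acid synthase Fasn (60.7 to 109), the acetoacetate-activating Aacs (24.1 to 38.3) and Pnpla3 (0.398 to 1.34). Srebf1 (77.4 and 98.5 FPKM) and Scd1 (1750 and 1324) were not called. Of 29 loci of fatty acid oxidation and PPARalpha targets 4 fell, namely Acadm (236 to 164 FPKM), Acot3 (78.2 to 27.9), Cyp4a14 (694 to 415) and the locus of Cyp4a10, Cyp4a31 and Cyp4a32 (370 to 241), and the coactivator Ppargc1a rose. G0s2, an inhibitor of the lipase ATGL, fell from 89.9 to 44.1 FPKM and Hsd17b13 from 299 to 199, 2 of 13 lipid droplet loci. Of 27 lipoprotein loci Apoc2, Angptl4 and Sar1b fell and none rose, and no call of this list was kept with q in this comparison alone. The list medians were 0.17 for lipogenesis, -0.28 for oxidation and PPARalpha targets, -0.23 for lipid droplets and -0.33 for lipoproteins. Of all tested members 1.62% rose and 1.71% fell (median -0.08). At 100 FPKM or more 0.735% rose and 5.51% fell (median -0.25).

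Sugar and amino acid metabolism had few calls, beside 1.62% of all tested members that rose and 1.71% that fell. Among 26 loci of glycolysis, gluconeogenesis and glycogen, the hexokinase gene Hk1 rose from 0.908 to 1.73 FPKM and Pfkfb3, which makes an activator of glycolysis, from 4.47 to 7.80. Of 52 loci of the urea cycle and amino acid catabolism Agxt (322 to 207 FPKM) and Ahcy (173 to 118) fell. None of 20 pericentral and 17 circadian clock loci was called, and of 18 periportal loci only Hsd17b13 was.

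Hormone-responsive genes were mixed. Over all tested members 1.62% rose and 1.71% fell, and of those at 100 FPKM or more 5.51% fell. Of 42 growth hormone and sex-biased loci 4 rose and 6 fell. The feedback inhibitor Socs2 fell from 17.003 to 8.87 FPKM and Cux2 from 10.6 to 7.31, while Onecut1 rose from 18.97 to 38.4 and A1bg from 107 to 234. Of 13 loci of the major urinary proteins, carriers of pheromones made by male liver, 7 fell and 1 rose. The locus of Mup14, Mup15 and Mup2 went from 25.3 to 3.83 FPKM, Mup16 from 10.1 to 2.21 and Mup17 from 67.5 to 15.8, while Mup21 went from 5.95 to 15.1. Mup genes are near-identical copies, and these loci are uncertain singly. The labels do not state the sex of the mice.

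Among 19 glucocorticoid-responsive loci 4 rose and 2 fell, beside 1.62% and 1.71% of all tested members. Zbtb16, a zinc finger factor, rose from 5.17 to 16.5 FPKM (log2 1.67, SE 0.23), and the targets Tdo2 (1136 and 967 FPKM) and Fkbp5 (58.1 and 65.6) were not called. Of 17 insulin and FOXO responsive loci Ppargc1a was the 1 rise (3.15 to 4.56 FPKM). In the hepcidin pathway of 24 loci, the locus of Hamp and Hamp2 fell from 4444 to 2167 FPKM (-1.04, SE 0.30). Hamp encodes the hormone that limits iron uptake, and the call was not kept with q in this comparison alone. The BMP target Id2 fell from 84.6 to 58.3 and the transferrin receptor Tfrc from 23.2 to 13.7. Bmp2, the ligand, was the rise, and Tmprss6 (181 and 143 FPKM) and Id1 (9.10 and 9.39) were not called.

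Acute phase genes split as well. Over all tested members 1.62% rose and 1.71% fell, and at 100 FPKM or more 0.735% rose and 5.51% fell. Saa1 rose from 133 to 273 FPKM (log2 1.04, SE 0.21), Saa2 from 80.3 to 122 and Lcn2 from 31.7 to 53.6, while Crp fell from 468 to 303, Apcs from 145 to 101, Lbp from 78.8 to 55.1 and Il1rn from 4.13 to 2.42, among 22 loci. Of 15 loci of IL-6 family signalling the leptin receptor gene Lepr (6.43 to 3.28 FPKM) and Socs2 fell and Il1r1 rose. Of 31 complement and coagulation loci C6 rose and none fell. C3, a member of that list, was not tested by the authors: its status is HIDATA, Cuffdiff's mark for too many fragments at a locus. It is listed at 2961 FPKM in wild type and at 0 in the knockout, and that 0 is no measurement. In all, 21 members had no test, 17 of them small RNA names or hosts.

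Components of translation and growth gave isolated calls, beside 1.62% of all tested members that rose and 1.71% that fell. Of 52 loci of initiation factors 4 fell and none rose: Eif4b (83.9 to 54.0 FPKM), Eif4a2 (92.6 to 60.7), Eif3e and Eif3h. These 4 lay at 20 to 100 FPKM, where 3.03% of members fell, and none was kept with q in this comparison alone. Of 49 ribosomal protein loci Rpl24 fell, from 5.24 to 0.692 FPKM, and the list's median was -0.22. A locus named Rps12 fell from 23.1 to 2.25 FPKM. Among 36 loci of oxidative phosphorylation only Cox6b2 rose (3.29 to 9.44 FPKM), among 30 proteasome loci only Psma7 fell, and among 31 nuclear receptors and hepatocyte factors only Onecut1 was called. Of 18 cell cycle loci Ccnb2 fell (2.72 to 1.26 FPKM), and 5 mitotic genes picked out after their values were seen, Cdkn3, Knstrn, Ect2, Cdca3 and Spc24, fell by 0.90 to 1.64. Of 14 immediate early loci Egr1 rose from 7.14 to 13.6 FPKM and Atf3 fell. In the VEGF, angiopoietin and Notch list of 18 loci Sema3f was the 1 call, a rise from 1.62 to 3.50.

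The 2 largest rises among called loci at 5 FPKM or more did not keep their direction with tunicamycin. Others of the 12 largest did, such as Cdkn1a and Phlda3, which were higher in the knockout in both treatments. Dancr with its small nucleolar RNA Snora26 (mm9, chromosome 5, 74489017 to 74490361) had 4.08 FPKM in wild type, against 38.4 in the knockout, and 8.41 and 6.78 with tunicamycin. It was 1 of 3 rises among 18 noncoding loci, with Snhg11 and Meg3. Cd97, an adhesion receptor gene of leukocytes (chromosome 8, 86239076 to 86265210), had 7.496 and 29.9 FPKM with DMSO but 30.0 and 8.19 with tunicamycin. The largest fall by ratio, 2210011C24Rik, went from 7.08 to 0.127 FPKM (log2 -5.80, SE 2.44), and had 0.0765 and 0.0382 with tunicamycin. Its SE was large, and its call was not kept with q in this comparison alone. In absolute level the largest falls after Hamp were the locus of Mup10 and Mup11 (1784 to 1101 FPKM) and Chchd2 (1193 to 809). Cyp4a14, Serpina1e (560 to 303) and Rarres2 (709 to 478) came next. None of these falls, that of Hamp included, kept its call with q in this comparison alone. The largest rises were Saa1, A1bg, the carboxylesterases Ces2b and Ces2e (114 to 193 FPKM), Lpin1, Fasn and Saa2. Saa1, A1bg and Lpin1 kept their call with q in this comparison alone, and the other loci did not.

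Each locus called with DMSO was then followed in the tunicamycin libraries. Of 182 rises, 43 were higher with tunicamycin too, 23.6% of the DMSO rises and 17.1% of the 251 tunicamycin rises. Of 192 falls, 33 were lower in both, 17.2% and 12.6% of the 261 falls. Their background is 2.26% of members higher and 2.35% lower. Of the DMSO rises 53.8% had a tunicamycin ratio above 0, beside 41.4% of all members with a ratio, and of the falls 80.2% had one below 0, beside 58.6%. The median ratio of the rises was 0.81 with DMSO and 0.05 with tunicamycin, and that of the falls -0.67 and -0.26.

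Led by their mean ratio, the loci higher in both include p53 targets (Phlda3, Eda2r, Psrc1 and Tnfrsf10b) and Cfd, Clec3b, Mybl1, Fam212b, Atp8b5 and 1700061I17Rik. Cfd, a protease of adipose tissue, had 0.182 and 2.75 FPKM with the solvent, then 0.274 and 84.3 with tunicamycin. Summed FPKM of 8 fat markers was 18.99 and 28.5 with DMSO and 32.9 and 283 with tunicamycin, and that of the adrenal markers was 9.30, 6.79, 23.6 and 1368 in the same order. The part of these markers in the tunicamycin values was not tested. The loci lower in both are led by the Mir223 host, Cyp3a16, Extl1, Mup16, Krt23, Rgs16, Cyp26a1, Cyp39a1, Lepr and Arl4d.

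Opposite calls were found at 16 loci: 7 were higher with DMSO and lower with tunicamycin, and 9 the reverse. Cd97, Lpin1, Zbtb16, Il1r1, Egr1, Dnase1l3 and Lyve1 were the 7. Among the 9, Akr1b7, an aldo-keto reductase of the adrenal list, had 3.95 and 1.19 FPKM with the solvent, then 20.8 and 332 with tunicamycin, and the transporter gene Abcb1b 1.20 and 0.327, then 0.218 and 8.19. Tfrc, Ccnb2, Hao2, Gas1, Sbk1, 2010003K11Rik and the locus of Serpinb1a and Serpinb1c were the others.

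**Figure D4:**
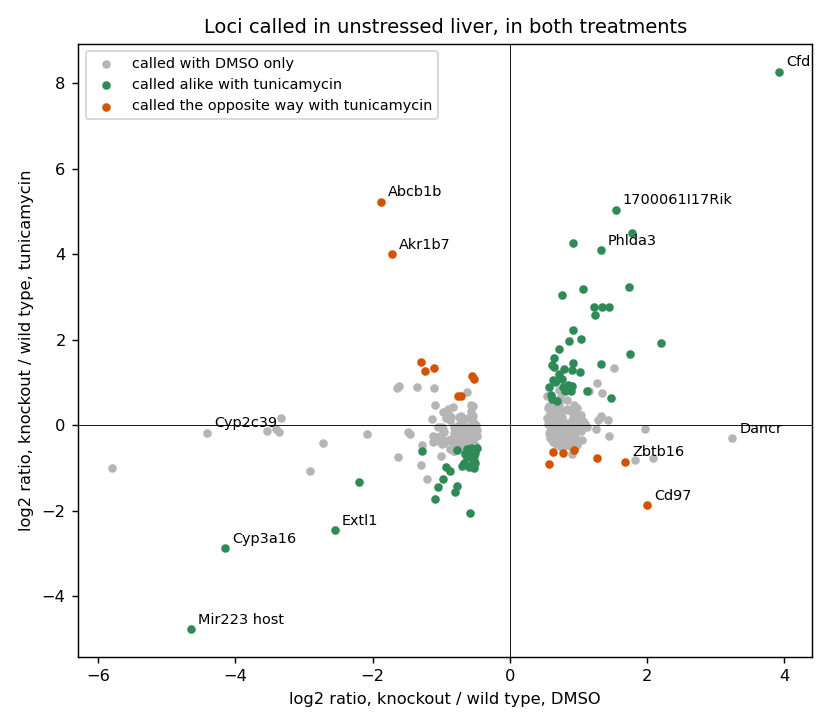
Log2 ratio of knockout over wild type with tunicamycin (vertical) against that with DMSO (horizontal), 1 point per locus called with DMSO and with a ratio in both. Green points were called alike in both (43 rises and 33 falls) and orange ones in opposite directions (16), while the grey ones, most of the rises among them, lie about a vertical ratio of 0.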

How the data were processed

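RNA-seq of liver was read from the authors' deposited table of loci. The tools were bcl2fastq, TopHat2 2.0.4, Cufflinks and Cuffdiff with the mouse build mm9, per the submitters' processing notes; per the labels' protocols, ERCC RNA was added before TruSeq poly(A) library preparation. For annotation, filters and normalization nothing is stated in the sources used here. Per the file headers, the authors' values are 1 FPKM per locus and group, pooled over 3 libraries, with a log2 fold change (read here only to check that it equalled the log2 ratio of the FPKM, within 4.12e-05), a test statistic (a score), a p-value and a q-value for each of 6 comparisons. The deposited q-values equal a Benjamini-Hochberg adjustment over 90828 tests, within 5.29e-07. The smallest deposited p is 5e-05.

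The authors' test was used, since no model can be fitted to 1 value per group. The difference of both genotype effects was tested by z. Each SE was the log2 ratio divided by the deposited statistic and by 1.74, a scale set by the deposited p-values. The p-values were Benjamini-Hochberg adjusted over all loci with both tests. The test was also run on simulated data. These were drawn as normal values with the same rescaled SEs, so that run cannot check the rescaling or the normal form. Members, gene lists (56 lists, 1211 of 1223 symbols matched) and alternatives were chosen with earlier results of these data known.

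Named loci were the Atf4 locus, the 12 largest rises and falls at 5 FPKM or more, the 6 largest in FPKM each way, the 10 highest and lowest of those called alike with tunicamycin, called list members, up to 3 other defining members per list, and called microRNA loci; others are said to be chosen after their values were seen. For 322 members several names share a locus. Promoters and microRNAs came from RefSeq tables of GRCm38.p6 by symbol, since no mm9 genome was used here. Work was done in Python 3.11.15 with scipy 1.17.1, pandas 2.3.3, numpy 2.4.6 and, for figures, matplotlib 3.10.9. Some single genes of the lists are not reported here.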

Additional observations from a re-analysis of the deposited data

Results flagged for a closer look

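At 18 of the named loci the knockout effect differed between treatments by the z test on the deposited statistics, rescaled to their p-values, and at 5 of the 18 without rescaling. The values are the log2 ratio of knockout over wild type with DMSO minus that with tunicamycin. Positive differences were Cd97 (3.87), Dancr with Snora26 (3.55), Serpina4-ps1 (2.63), Zbtb16 (2.53), Lpin1 (2.04) and Rgs16 (1.48); Rgs16 fell in both comparisons, by 0.58 and 2.06. Negative differences at loci that rose with DMSO were Cfd (-4.35), Eda2r (-3.33), Phlda3 (-2.76), the Meg3 locus (-2.30) and Mybl1 (-2.12), all with a larger rise under tunicamycin. Negative differences at loci that fell with DMSO were Cyp2c39 (-4.23), the Mir17hg locus (-3.50), Mir365-2 (-3.40), the let-7 locus (-3.32), Rps12 (-3.19), the locus of Mup14, Mup15 and Mup2 (-2.31) and Mup17 (-1.89), none of which was called with tunicamycin.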

How the results depend on the processing

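The adjustment sets most counts. With q in this comparison alone, the 374 calls became 94 (46 higher, 48 lower), the 76 loci called alike with tunicamycin 22 and the 143 list calls, a locus counted once per list, 58. A deposited q under 0.01 left 150 (85 and 65), and a log2 ratio of at least 1 in size left 81 (41 and 40). A floor of 5 FPKM left 93 rises and 50 of the loci called alike. With the statistic not rescaled the difference test called 13 loci, not 125, since every SE is then larger, and kept 5 of the 18 named loci given above: Dancr with Snora26, Cd97, Zbtb16, Cyp2c39 and the let-7 locus. With each SE no smaller than the deposited p implies, a setting added after seeing the data, it called 110 and kept 17 of the 18 named loci, all but Cfd (adjusted p 0.0692). Without merged loci there were 354 calls. Of 52 named loci, 30 kept their call with q in this comparison alone and 21 did not. Centring on the median of members changed the sign of 5 of 55 list medians and of no called locus, and moved the ratios from 4224 above and 6977 below 0 to 5600 on each side. A pseudocount of 1 changed the sign of no list median. Leaving out single libraries was not run, because the table gives 1 value per group. No paired analysis was possible because the labels pair no libraries and no library has a value of its own. Depth is unknown, so what it limits cannot be given.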
